A study of Homo sapiens with 12 samples.

Results

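Long intergenic noncoding RNAs (lincRNAs) are transcripts that lie between protein-coding genes and encode no known protein. The lincRNAs described here are the genes of biotype lincRNA that reached at least 1 FPKM (a fragment count scaled by gene length and library size) in at least 3 of 12 libraries of HepaRG cells, a human hepatic cell line. The rule found 317 genes among 7629 lincRNA genes and 58735 genes in all, and 5 of them carry the name SNHG, for small nucleolar RNA host gene. The same level was reached by 11856 genes of any biotype, 10134 of them protein-coding, and these were the genes tested.

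There were 4 groups of 3 libraries, all of wild-type cells. Control cells were untreated, PA cells had 400 µM of a deuterium-labelled palmitate for 4 h, and PA+OA cells had 200 µM oleate added to the same palmitate. BMS-309403, which inhibits FABP4, a carrier of fatty acids, was given to PA+BMS cells at 50 µM for 24 h, with 400 µM palmitate for 4 h. No group had oleate alone or BMS-309403 alone, so each of these is compared only on top of palmitate, and both comparisons share the PA libraries. Replicates are not described as separate cultures, so p-values measure a spread between libraries that may be technical. A lincRNA can be lower because fewer cells make it or because each cell holds less of it, and bulk RNA cannot tell these apart.

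Many lincRNAs are made from the opposite strand of a coding gene's promoter, a divergent arrangement, and their levels can follow local transcription. A snoRNA host gene is transcribed and spliced so that small nucleolar RNAs (snoRNAs) can be cut from its introns. These snoRNAs guide the modification of ribosomal and other RNAs, while the spliced host RNA that remains is often short-lived, being a target of nonsense-mediated decay where it is translated. Several host genes share with ribosomal protein genes a transcript start in a run of pyrimidines, the 5′ terminal oligopyrimidine (TOP) tract. MicroRNA host genes carry a hairpin in the same way. NEAT1 is the scaffold of paraspeckles and MALAT1 gathers in nuclear speckles, and both are abundant nuclear RNAs whose major long forms end without a usual poly(A) tail, so poly(A)-selected libraries can capture them poorly.

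The snoRNAs of 5 lincRNA hosts are printed here because they define what a host gene is, and the libraries measured the host transcript and not the snoRNA itself. Sequences are from GENCODE 29 transcripts on GRCh38, 5′ to 3′ on the host's strand. Capitals mark the C box TGATGA and the D box CTGA of the box C/D snoRNA, which guides ribose methylation, and the ACA near the 3′ end of each box H/ACA snoRNA, which guides pseudouridine formation. SNORD60 lies in SNHG19 at chr16:2155023-2155105 (minus strand), SNORA24 in SNHG8 at chr4:118279190-118279320 (plus), and SNORA9 in SNHG15 at chr7:44985378-44985510 (minus). SNORA78 lies in SNHG9 at chr16:1965184-1965310 (plus) and SNORA13 in EPB41L4A-AS1 at chr5:112161485-112161617 (plus).
SNORD60: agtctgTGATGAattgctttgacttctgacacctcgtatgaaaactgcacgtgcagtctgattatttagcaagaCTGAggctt
SNORA24: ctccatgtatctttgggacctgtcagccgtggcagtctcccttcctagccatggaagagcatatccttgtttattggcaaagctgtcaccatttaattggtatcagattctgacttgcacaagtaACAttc
SNORA9: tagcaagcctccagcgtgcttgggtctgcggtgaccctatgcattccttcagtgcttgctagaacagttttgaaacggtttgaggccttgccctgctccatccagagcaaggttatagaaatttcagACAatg
SNORA78: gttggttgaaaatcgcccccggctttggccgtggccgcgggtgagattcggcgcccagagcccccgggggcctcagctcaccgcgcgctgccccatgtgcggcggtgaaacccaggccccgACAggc
SNORA13: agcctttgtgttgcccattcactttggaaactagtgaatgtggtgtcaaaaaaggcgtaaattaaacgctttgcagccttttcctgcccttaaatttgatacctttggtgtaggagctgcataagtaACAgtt

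The start regions of the host genes are shown because a pyrimidine run at the start is a known feature of many host genes. Each stretch runs from 20 bases before the RefSeq start (GRCh38.p14) to 30 bases from it, and capitals mark the unbroken pyrimidines that open the transcript. The stretches are at chr4:118278742-118278791 (plus) for SNHG8, chr16:2155329-2155378 (minus) for SNHG19 and chr5:139274081-139274130 (plus) for SNHG4. SNHG15 and SNHG9 are named only.
SNHG8: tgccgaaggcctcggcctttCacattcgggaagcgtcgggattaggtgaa
SNHG19: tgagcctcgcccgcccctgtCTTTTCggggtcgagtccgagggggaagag
SNHG4: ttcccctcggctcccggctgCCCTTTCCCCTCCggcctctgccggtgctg
From the RefSeq start, SNHG4 opens with 13 pyrimidines, SNHG19 with 6 and SNHG8 with 1. The GENCODE start of SNHG8 lies 53 bases from the RefSeq start, against 1 for SNHG4 and 0 for SNHG19, so the SNHG8 count holds for the RefSeq start only. A start of C and at least 4 further pyrimidines was held by 2 of these 3 genes, by 4 of the 86 lincRNAs with a promoter in the RefSeq table (4.65%) and by 4.07% of all 35116 promoters. Of the 86 lincRNAs, 64 have an annotated start within 100 bases of the RefSeq start. Motifs were searched on both strands of each 300-base promoter. The AP-1 letters TGACTCA were in 3 of the 86 (3.49%, against 4.95% of all promoters) and the TATA box TATAAA in 8 (9.30%, against 11.5%). The heat shock letters GAANNTTC were in 5 (5.81%, against 6.77%), the amino acid response letters TGATGNAA in 1 (1.16%, against 3.62%), and the CRE letters TGACGTCA in 0 (against 1.85%). Such matches describe letters in these windows and say nothing of a factor.

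The microRNAs of the 4 lincRNAs named as microRNA hosts are given in their mature form from RefSeq, with the seed, bases 2 to 8, in capitals. These are shown to identify what each host carries, since poly(A)-selected libraries do not measure a mature microRNA. They lie at chr17:1713914-1713935 (minus) in MIR22HG, at chr16:14304017-14304038 and chr16:14309340-14309361 (both plus) in MIR193BHG, at chrX:134546371-134546393 (minus) in MIR503HG and at chr5:8460933-8460951 (plus) in MIR4458HG.
hsa-miR-22-3p: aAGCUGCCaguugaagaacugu
hsa-miR-193b-3p: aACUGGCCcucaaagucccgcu
hsa-miR-365a-3p: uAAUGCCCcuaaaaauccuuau
hsa-miR-503-5p: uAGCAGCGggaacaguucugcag
hsa-miR-4458: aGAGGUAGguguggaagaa
No seed is shared between them. The seed of hsa-miR-4458 is that of let-7, and 14 mature names in the RefSeq table carry it.

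The whole reads recovered from the FPKM values numbered 16059128 to 19971190 per library, and the 317 lincRNAs held 27466 to 40183 of them, 0.146% to 0.227%. The first principal component of the tested genes held 54.4% of the variance, and PA+OA replicate 1 and PA+BMS replicate 3 lay at its ends (54.6 and -51.5, against -27.1 to 28.0 for the other libraries). GC content and gene length accounted for 43.3% of the variance of the palmitate log2 changes over all tested genes, 7.79% of that of the oleate changes and 55.7% of that of the BMS-309403 changes. The label of hepatic cells was not borne out by hepatocyte markers: 0 of 10 reached the tested level, and their summed FPKM was 0.0186 to 0.446. The 7 markers of bile duct and simple epithelium, of which keratins 7, 8 and 18 reached that level, summed to 872 to 1051 FPKM in control, 1029 to 1286 in PA, 955 to 1739 in PA+OA and 372 to 427 in PA+BMS. The 6 of mesenchyme, of which COL1A1, LUM and PDGFRB reached it, summed to 19.01 to 21 in control, 20.3 to 20.6 in PA, 15.8 to 20.3 in PA+OA and 14.7 to 15.8 in PA+BMS. The 4 of blood and macrophages, of which CSF1R reached it, summed to 1.63 to 2.36 in control, 1.82 to 2.38 in PA, 2.26 to 2.50 in PA+OA and 0.770 to 1.0 in PA+BMS. The 4 of endothelium, of which CDH5 reached it, summed to 1.36 to 1.82 in control, 1.06 to 1.35 in PA, 0.287 to 0.454 in PA+OA and 0.343 to 0.459 in PA+BMS, and the part of any cell type in the lincRNA changes was not tested.

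The level of each lincRNA chose it, so levels are given as a description. The 317 lincRNAs were low: the median of their mean levels over 12 libraries was 1.66 FPKM, against 5.58 for all tested genes, and 82 had a mean under 1, 199 from 1 to 5 and 36 at 5 or above. At least 1 FPKM was reached in all 12 libraries by 117 lincRNAs and in exactly 3 by 29. Of those, 6 passed through 1 group alone, 5 through PA+OA and 1 (MIR193BHG) through control, and had to differ. The genes just inside the level, by the library that decided it, were AC009229.2 (1.01 FPKM), AC097468.3 (1.01) and AC015712.1 (1.01), and just outside were LINC01914 (0.999), LINC01786 (0.998) and AC007114.1 (0.998).

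The 5 highest lincRNAs held 19.98% of the summed level. They were PICSAR, described in skin carcinoma cells, at a mean of 78.0 FPKM, the snoRNA hosts SNHG8 (37.2), SNHG19 (31.7) and SNHG15 (21.5), and NORAD (28.3), which binds Pumilio proteins in the cytoplasm. Most lincRNAs had no such history: 192 carry only a clone name and 58 a LINC number. The summed level of the 317 was 893 to 1053 FPKM in control, 929 to 1066 in PA, 1078 to 1251 in PA+OA and 673 to 850 in PA+BMS, with the lowest value in PA+BMS replicate 3. The number at 1 FPKM or above ranged from 182 in that library to 260 in PA+OA replicate 2.

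The lincRNAs were short, with a median exonic length of 1069 bases against 4439 for all tested genes, and 90 of them (28.4%) had a single exon, against 8.78%. Their median GC content was 50.9%, against 49.2%. Most lay beside coding genes despite the name intergenic: 211 overlapped a protein-coding gene or lay within 10 kb of one, 63 of these overlapped it, 80 were divergent and 46 lay downstream on the same strand. A tested gene overlapped 74 of the 317, and the strand setting of the counting is not given in the sources used here, so reads of these cannot be assigned with certainty. A snoRNA or microRNA lay on the strand of 17.

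Palmitate was compared with control, oleate with palmitate alone, and BMS-309403 with palmitate alone, by limma on log2(FPKM + 1) with Benjamini-Hochberg adjustment over all 11856 genes, and called means an adjusted p of at most 0.05. With palmitate, 37 of 317 lincRNAs were called, 19 higher and 18 lower, a share of 11.7%. Of all tested genes 27.6% were called, 12.8% higher and 14.8% lower. With oleate added, 32 were called, 24 higher and 8 lower, or 10.1%, against 7.91% of all tested genes (4.01% higher and 3.91% lower). Without the 6 lincRNAs that passed through 1 group, 28 were called with oleate, 20 higher and 8 lower. With BMS-309403, 78 were called, 14 higher and 64 lower, or 24.6%, against 54.5% (25.2% higher and 29.4% lower). The 2 groups compared did not overlap for 37, 32 and 72 of these, and for 3265 of 3272, 936 of 938 and 6401 of 6463 called genes of any biotype. A change of at least 2-fold on the fitted scale was called for 2, 9 and 13 lincRNAs, and for 149, 137 and 282 of all 11856 genes. Without those 6 lincRNAs, the oleate count of such changes was 7.

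The share called was higher above 5 FPKM than below it. Among the 36 lincRNAs with a mean of at least 5 FPKM, 27.8% were called with palmitate, 19.4% with oleate and 63.9% with BMS-309403, where all tested genes at that level gave 32.7%, 8.85% and 63.1%. Below 5 FPKM, the lincRNAs gave 9.61%, 8.90% and 19.6%, and all tested genes 21.9%, 6.85% and 44.9%. Direction with oleate also differed by level. Below 5 FPKM, 21 lincRNAs rose and 4 fell, and of all tested genes 272 rose and 111 fell. The 21 include lincRNAs that passed the level through PA+OA alone and had to be higher there. At 5 FPKM or above, 3 lincRNAs rose and 4 fell, and of all tested genes 203 rose and 352 fell. The median log2 change of the 317 was 0.07, 0.09 and -0.14 in the 3 comparisons, against 0.03, -0.00 and -0.04 over all tested genes, and the median standard error was 0.19 against 0.15.

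**Figure D1:**
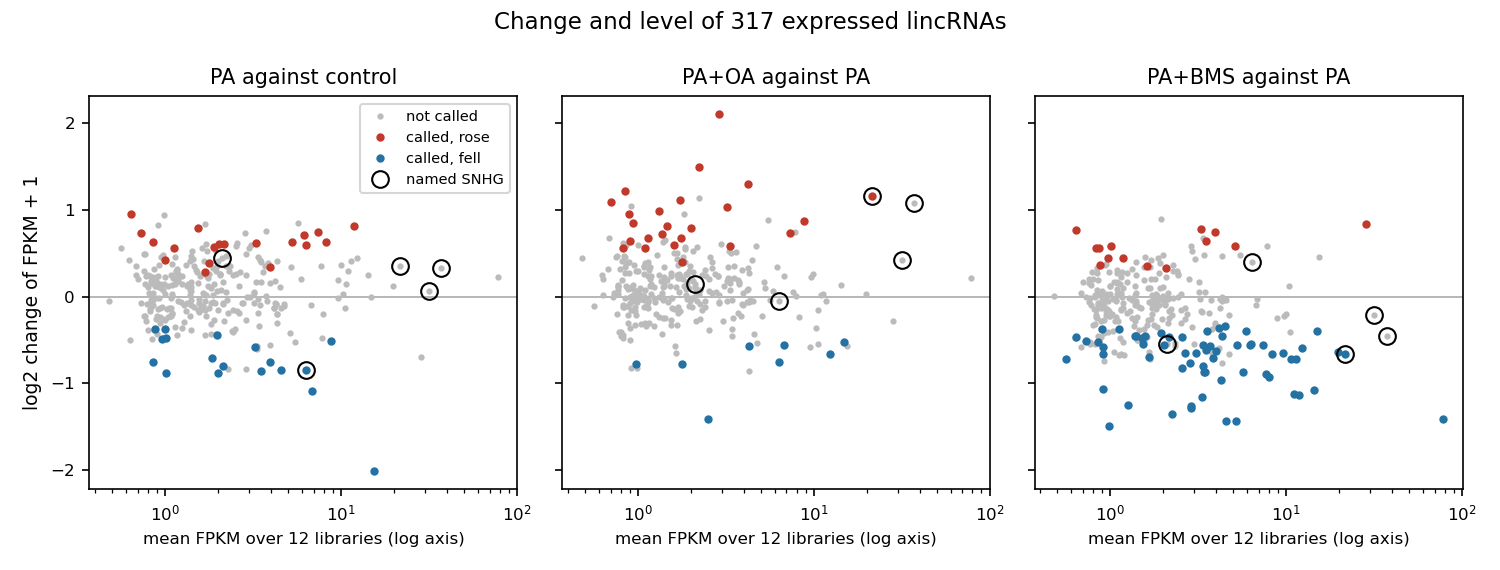
Log2 change of FPKM + 1 (vertical) against mean FPKM over 12 libraries (horizontal, log axis) for the 317 lincRNAs in each comparison. Red points rose, blue points fell, grey points were not called, and rings mark the 5 SNHG genes. The BMS-309403 comparison has 64 blue points, and 21 of them have a mean of at least 5 FPKM.

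The direction of the calls depended on scaling in the palmitate and BMS-309403 comparisons. With equal library totals, a setting that put the median change of all genes at -0.11, 0.04 and 0.16, the split in lincRNAs that rose and fell was 9 and 25 with palmitate, 19 and 8 with oleate, and 29 and 24 with BMS-309403. With limma voom on recovered reads (medians of -0.15, 0.04 and 0.21) it was 9 and 23, 17 and 4, and 29 and 21. Quantile normalization gave 31 and 12, 20 and 11, and 8 and 77. With each library's trend over GC content and length removed, it was 16 and 26, 27 and 11, and 33 and 33. Rises outnumbered falls with oleate under each of these settings, while the excess of falls with BMS-309403 was absent under 3 of them. These splits count the lincRNAs that passed through PA+OA alone.

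GC content moved with the calls. The lincRNAs that rose with palmitate had a median GC content of 51.5% and those that fell 45.9%, while with BMS-309403 the order was the reverse, 46.2% for those that rose and 53.2% for those that fell. With oleate the medians were 51.7% and 52.7%. Over the 317 lincRNAs, Spearman's rho of log2 change with GC content was 0.29, 0.01 and -0.33, a description across genes that share libraries. The part of GC content in single changes was not tested beyond the fit with the trend removed.

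Single libraries moved the counts. With palmitate, 10 lincRNAs were called without PA replicate 2, 13 without control replicate 2, 15 without control replicate 3 and 22 without PA replicate 1. With oleate, 16 were called without PA replicate 1, 21 without PA replicate 2, and 20 without either PA+OA replicate 2 or PA+OA replicate 3. With BMS-309403, 35 were called without PA replicate 2 and 37 without PA+BMS replicate 3. Without both libraries that stood apart, the splits were 51 and 29, 43 and 15, and 19 and 41. Neither library is in the palmitate comparison, where only the shared estimate of spread changed.

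**Figure D2:**
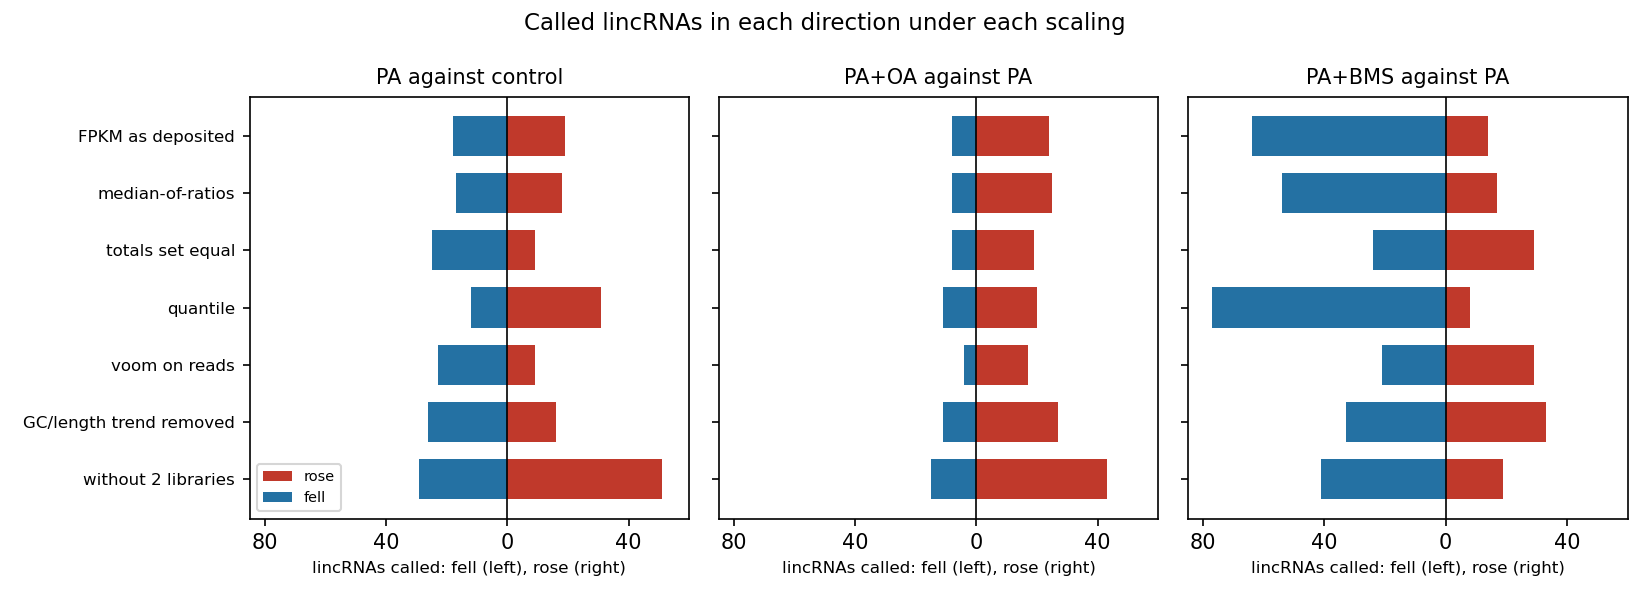
Number of lincRNAs that fell (blue, left of 0) and rose (red, right of 0) at an adjusted p of at most 0.05 in each comparison, under 7 settings named at the left. The bottom setting leaves out PA+OA replicate 1 and PA+BMS replicate 3. Red bars are longer than blue bars under every setting in the oleate comparison, whereas the longer side changes in the other comparisons.

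Of the snoRNA hosts, SNHG15 rose with oleate and SNHG4 fell with palmitate, and no other SNHG gene among the lincRNAs was called in those comparisons. The summed level of the 5 SNHG genes was 60.8 to 93.4 FPKM in control, 64.6 to 101 in PA, 130 to 175 in PA+OA and 39.8 to 88.9 in PA+BMS. The PA+OA sums did not overlap those of any other group. SNHG8 and SNHG15 supplied most of that difference.

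SNHG15 (chr7:44983023-44986961, minus strand), the host of SNORA9, was at 13.9, 15.7 and 12.3 FPKM in control, 13.8, 22.0 and 19.1 in PA, 54.1, 39.0 and 33.8 in PA+OA and 13.4, 14.1 and 6.95 in PA+BMS. Every PA+OA library stood above every other library. With oleate it rose by a log2 change of 1.16 (SE 0.25, n = 3 and 3, limma adjusted p = 0.0146), a call that was lost without PA replicate 1 (adjusted p = 0.0773). Without both libraries that stood apart, the log2 change with oleate was 0.97. With BMS-309403 it fell by 0.66 (SE 0.25, limma adjusted p = 0.0423), but the PA and PA+BMS libraries overlapped. Leaving out any control library, PA replicate 2 or 3, PA+OA replicate 2 or PA+BMS replicate 3 lost that call (highest adjusted p = 0.186). Of the 11 other alternatives only 3 kept it, with adjusted p up to 0.184. Without the GC and length trend the log2 change was -0.54 (adjusted p = 0.102).

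SNHG8 (chr4:118278709-118279823, plus strand), the host of SNORA24, was at 32.6, 28.1 and 15.7 FPKM in control, 22.4, 38.6 and 34.3 in PA, 75.7, 74.7 and 51.3 in PA+OA and 31.9, 29.1 and 11.8 in PA+BMS. The PA+OA libraries again did not overlap the others, yet the log2 change of 1.07 (SE 0.36) had a limma adjusted p of 0.0956. Without both libraries that stood apart it was 0.98, with an adjusted p of 0.0376. SNHG19 (chr16:2154797-2155358, minus strand), the host of SNORD60, was at 22.9, 33.3 and 34.4 FPKM in PA and 39.5, 43.7 and 37.8 in PA+OA, a log2 difference of 0.42 (SE 0.29, limma adjusted p = 0.47). Its levels were 27.5, 37.2 and 22.5 in control and 34.8, 32.6 and 14.4 in PA+BMS, so the groups other than PA+OA overlapped. SNHG9 (chr16:1964959-1965509, plus strand), the host of SNORA78, was low, at 2.24, 1.33 and 0.98 FPKM in control, 1.19, 2.52 and 3.93 in PA, 2.63, 3.51 and 2.11 in PA+OA and 2.55, 2.16 and 0.0915 in PA+BMS. It was not called in any comparison. The oleate differences of SNHG8, SNHG19, SNHG15 and SNHG9 were positive under all 7 settings of scaling, GC correction and library choice.

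SNHG4 (chr5:139274102-139284899, plus strand), also a host gene, went the other way. It was at 7.74, 11.1 and 9.45 FPKM in control, 4.34, 4.41 and 5.58 in PA, 3.28, 5.26 and 5.36 in PA+OA and 6.34, 6.98 and 6.43 in PA+BMS. No treated library reached the lowest control library. With palmitate it fell by 0.85 (SE 0.17, limma adjusted p = 0.00648), and the call held with each library left out and under every other alternative. It overlaps SIL1 on the opposite strand, so its reads are uncertain.

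EPB41L4A-AS1 (chr5:112160526-112164276, plus strand), the host of SNORA13, was at 4.30, 3.72 and 3.23 FPKM in control, 5.44, 7.21 and 6.43 in PA, 6.57, 7.26 and 6.78 in PA+OA and 5.05, 4.85 and 2.50 in PA+BMS. With palmitate it rose by 0.63 (SE 0.19, limma adjusted p = 0.0293), and with BMS-309403 it fell by 0.56 (SE 0.19, limma adjusted p = 0.0264). The first call was lost without control replicate 2 or 3 or PA replicate 2 or 3 (highest adjusted p = 0.109). The second was lost without PA replicate 2 or 3 or PA+BMS replicate 3 (highest adjusted p = 0.0943). Both were also lost with no filter on low values, with library totals set equal and with voom. The second was lost too with only the 2 groups compared and without both libraries that stood apart. Under these alternatives the highest adjusted p was 0.113 for the first and 0.205 for the second. LINC02001, the host of SNORD7 and chosen after its values were seen, was at 12.5, 15.5 and 12.5 FPKM in PA and 9.59, 9.72 and 4.86 in PA+BMS. It fell by 0.72 (SE 0.23, limma adjusted p = 0.0207), a call lost without PA replicate 2 or PA+BMS replicate 3 (highest adjusted p = 0.0776).

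**Figure D3:**
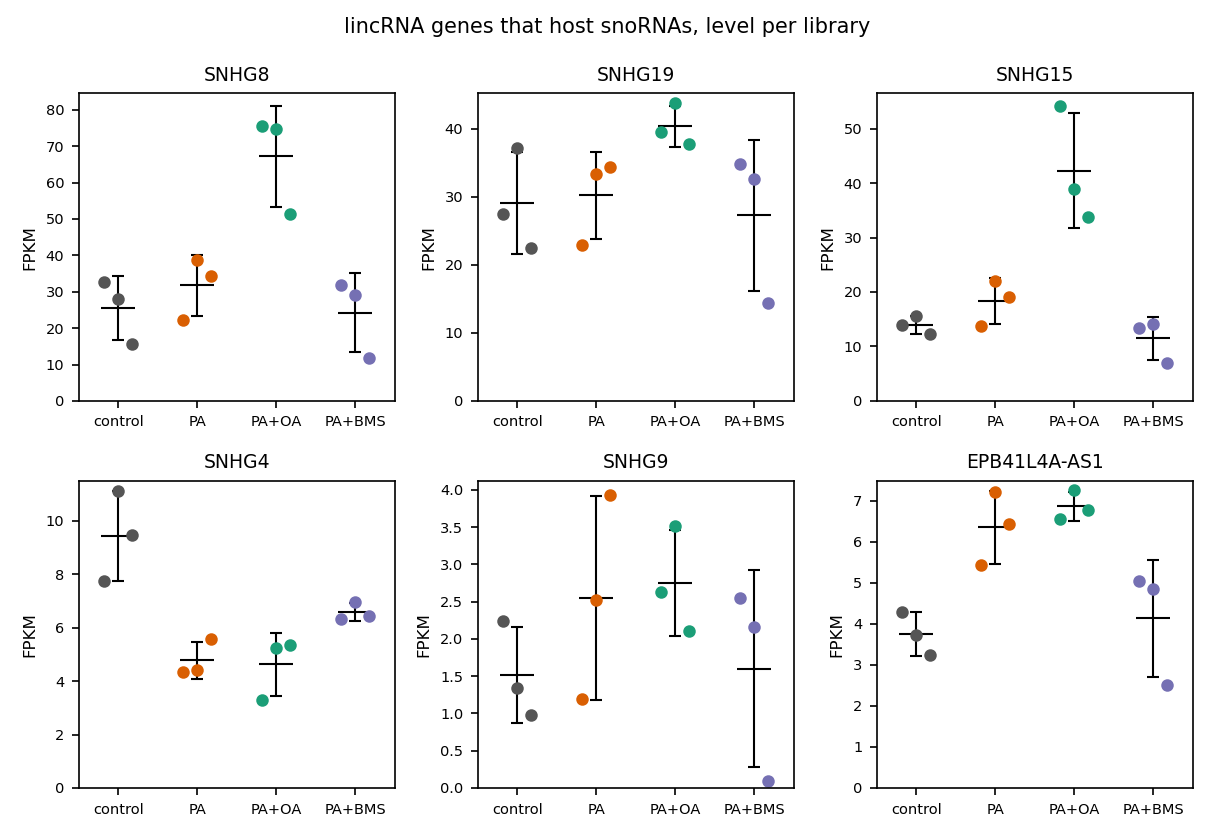
FPKM per library for 6 lincRNA genes that host snoRNAs, in the 4 groups, each panel with its own linear axis from 0. Points are libraries, the long bar is the group mean and the whiskers are 1 SD (n = 3). The PA+OA points of SNHG8 and SNHG15 lie above all others, and the control points of SNHG4 lie above all treated points.

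Host genes of other biotypes give the background to these. Of 16 SNHG genes with another biotype, 12 were tested, and their median log2 change was 0.09 with palmitate, 0.27 with oleate and -0.26 with BMS-309403. Among all tested genes, 27.6%, 7.91% and 54.5% were called in the 3 comparisons. With palmitate 0 of 12 were called. With oleate 2 rose and 0 fell: SNHG1, which carries several box C/D snoRNAs, from 11.7, 20.8 and 21.1 FPKM in PA to 47.6, 58.8 and 55.8 in PA+OA (log2 change 1.59, limma adjusted p = 0.00397), and SNHG12 from 2.20, 5.88 and 5.05 to 10.5, 12.2 and 11.5 (1.28, limma adjusted p = 0.0273). The SNHG1 call held with each library left out, and the SNHG12 call was lost without PA replicate 1 or PA+OA replicate 2 or 3 (highest adjusted p = 0.111). With BMS-309403, SNHG17 (log2 change -0.78) and SNHG11 (-0.62) fell, calls lost without PA replicate 2 or PA+BMS replicate 3, and for SNHG11 also without PA replicate 3 (highest adjusted p = 0.0684 and 0.0990). Both were also lost with no filter on low values, with library totals set equal, with voom, and without the GC and length trend (highest adjusted p = 0.0847 for SNHG17 and 0.364 for SNHG11).

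Of 19 other snoRNA hosts tested, most of them coding for ribosomal proteins or translation factors, 4 rose and 3 fell with palmitate (median log2 change 0.44), 0 were called with oleate (-0.07), and 4 rose and 12 fell with BMS-309403 (-0.57). EPB41L4A-AS1 is in this list and in both counts. Over all tested genes, 27.6% were called with palmitate, 7.91% with oleate and 54.5% with BMS-309403. EEF2, the translation elongation factor, rose with palmitate by 0.87 (limma adjusted p = 0.0137) and EIF4A2, a translation initiation helicase, fell by 0.76 (limma adjusted p = 0.0127). These calls were lost without control replicate 2, PA replicate 1 or PA replicate 2, and for EEF2 also without control replicate 3 (highest adjusted p = 0.0705 and 0.0640). The EIF4A2 change was -0.36 without the GC and length trend (adjusted p = 0.138), and the EEF2 call was lost with no filter on low values (adjusted p = 0.0855). With BMS-309403, RPS3, a protein of the small ribosomal subunit, fell by 0.85 (limma adjusted p = 0.0117), and this held with each library left out.

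Nonsense-mediated decay, which removes the spliced RNA of many host genes, was represented by 17 factors. With palmitate 4 rose and 1 fell, with oleate 0 were called, and with BMS-309403 5 rose and 5 fell (median log2 changes -0.05, 0.01 and 0.03). The counts here and in the exosome list below stand beside the shares of all tested genes called. These shares were 27.6% with palmitate, 7.91% with oleate and 54.5% with BMS-309403. UPF1, the central helicase, rose with palmitate by 0.50 (limma adjusted p = 0.0117) and fell with BMS-309403 by 0.66 (limma adjusted p = 0.00342), and its partner UPF2 did the reverse, falling by 0.82 and rising by 0.70. The palmitate calls of both were lost without control replicate 2 or PA replicate 2 (highest adjusted p = 0.0577 and 0.0754), and the UPF2 call with BMS-309403 without PA replicate 2 (adjusted p = 0.0544). UPF2 was also not called in either comparison with no filter on low values, and its change with BMS-309403 was 0.23 without the GC and length trend (adjusted p = 0.236). The nuclear exosome degrades many short-lived noncoding RNAs. The exosome list, which holds its subunits and adaptors and also the separate exonuclease XRN2, gave 0 rises and 5 falls of 21 with palmitate. It gave 1 rise with oleate, and 8 rises and 4 falls with BMS-309403 (medians -0.19, 0.10 and 0.24). XRN2, the nuclear 5′ exonuclease, fell with palmitate by 0.71 and rose with BMS-309403 by 0.75 (limma adjusted p = 0.00621 and 0.00390), and ZCCHC8, an adaptor subunit, rose with oleate by 0.60 (limma adjusted p = 0.00381).

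Among the microRNA hosts, MIR22HG was at 4.66, 6.59 and 5.08 FPKM in control, 2.67, 4.02 and 3.84 in PA, 4.66, 8.95 and 8.82 in PA+OA and 6.60, 6.30 and 3.38 in PA+BMS. Its PA libraries lay below the control libraries and below the PA+OA libraries, but neither difference was called (log2 -0.52, limma adjusted p = 0.129, and 0.88, limma adjusted p = 0.0543). Without both libraries that stood apart, the oleate difference was 1.15, with an adjusted p of 0.000754. It overlaps WDR81 on the opposite strand. MIR193BHG was at 1.64, 1.5 and 1.64 FPKM in control and 0.841, 0.758 and 0.968 in PA, and it stayed between 0.524 and 0.783 in the other groups. It fell with palmitate by 0.48 (SE 0.11, limma adjusted p = 0.0119). It had passed the level through control alone, so this fall is no independent result, and it was lost without PA replicate 2 (adjusted p = 0.0566).

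MIR4458HG was at 2.69, 3.06 and 2.53 FPKM in control and 1.52, 1.95 and 1.85 in PA. It fell with palmitate by 0.44 (SE 0.13, limma adjusted p = 0.0274), a call lost on leaving out control replicate 2 or 3 or any PA library (highest adjusted p = 0.115) and without the GC and length trend (log2 -0.09). MIR503HG was at 0.178, 0.575 and 0.593 FPKM in PA and 1.10, 2.20 and 1.54 in PA+OA. It rose with oleate by 0.84 (SE 0.23, limma adjusted p = 0.0424), and the call was lost on leaving out any control or PA library, PA+OA replicate 2 or 3, or PA+BMS replicate 1 (highest adjusted p = 0.174).

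The nuclear RNAs NEAT1 and MALAT1 were not called in any comparison. NEAT1 (chr11:65422774-65445540, plus strand) was at 8.38, 9.42 and 4.83 FPKM in control, 3.40, 4.99 and 7.12 in PA, 3.88, 13.5 and 13.3 in PA+OA and 9.92, 9.28 and 5.41 in PA+BMS. The libraries that stood apart were the lowest of their groups. Without them the log2 difference with oleate was 1.27 (limma adjusted p = 0.00762) and with BMS-309403 0.83 (limma adjusted p = 0.0230), against 0.75 and 0.58 with all libraries (adjusted p = 0.326 and 0.224). MALAT1 was at 3.03, 4.34 and 4.09 FPKM in control, 2.66, 1.58 and 2.34 in PA, 1.11, 4.04 and 3.10 in PA+OA and 2.66, 2.63 and 8.61 in PA+BMS. All PA values lay below the control values (log2 -0.60, limma adjusted p = 0.219, and 0.00711 without both libraries that stood apart). Those libraries are in neither group compared, so the log2 difference stayed the same and only its standard error fell (0.37 to 0.15).

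The proteins of paraspeckles and nuclear speckles, the bodies in which these RNAs lie, were counted from lists of known members. Their counts stand beside 27.6%, 7.91% and 54.5% of all tested genes called in the 3 comparisons. Of 15 paraspeckle proteins, 2 rose and 4 fell with palmitate, 0 were called with oleate, and 2 rose and 3 fell with BMS-309403 (medians -0.23, -0.07 and 0.10). TARDBP fell with palmitate by 0.85 and PSPC1 by 0.73 (limma adjusted p = 0.00188 and 0.00356). Of 10 nuclear speckle proteins, 6 fell and 0 rose with palmitate (median -0.76), 0 were called with oleate (-0.21), and 3 rose and 1 fell with BMS-309403 (0.26). The splicing factor SRSF7 fell with palmitate by 1.21 (limma adjusted p = 0.000575), from a mean of 41.0 ± 6.48 FPKM to 17.1 ± 1.81 (SD, n = 3), and SRSF11 fell by 0.83 (limma adjusted p = 0.00214). Both held with each library left out, whereas the rises of TARDBP (0.53) and SRSF11 (0.63) with BMS-309403 were lost without the GC and length trend (adjusted p = 0.757 and 0.386).

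NORAD (chr20:36045622-36050960, minus strand, a single exon) was at 31.2, 35.4 and 36.9 FPKM in control, 22.7, 18.3 and 22.2 in PA, 9.60, 20.7 and 24.5 in PA+OA and 32.1, 31.2 and 55.2 in PA+BMS. The PA libraries lay below all control and PA+BMS libraries. With BMS-309403 it rose by 0.83 (SE 0.29, limma adjusted p = 0.0305), a call lost on leaving out any PA library or PA+BMS replicate 3 (highest adjusted p = 0.131) and without the GC and length trend (0.41, adjusted p = 0.191). The palmitate difference of -0.69 was not called (limma adjusted p = 0.0872, and 0.000736 without both libraries that stood apart). Neither of those libraries is in the groups compared, and only the standard error changed (0.29 to 0.10). CYTOR, a cytoskeleton-linked lincRNA, and PURPL, a p53-induced one, were not called in any comparison.

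With palmitate, a pair of overlapping lincRNAs on chromosome 10 fell furthest, and FENDRR, the neighbour of FOXF1, also fell. AC245041.1 (chr10:47970043-47973496, minus strand) was at 28.5, 41.1 and 38.4 FPKM in control, 10.5, 5.26 and 9.43 in PA, 3.27, 5.78 and 7.03 in PA+OA and 9.81, 9.92 and 15.6 in PA+BMS. Every treated library was below every control library. It fell by 2.01 (SE 0.28, limma adjusted p = 0.00138). AC245041.2, whose span (chr10:47908064-47991850, minus strand) encloses it, was at 13.7, 11.9 and 12.7 FPKM in control, 4.87, 6.55 and 5.20 in PA, 3.26, 4.03 and 3.06 in PA+OA and 5.47, 5.62 and 5.11 in PA+BMS. It fell with palmitate by 1.08 (SE 0.12, limma adjusted p = 0.000359), and both calls held under every alternative. With oleate it fell further by 0.55 (SE 0.12, limma adjusted p = 0.0148), a call lost without PA replicate 2 or PA+OA replicate 3 (highest adjusted p = 0.0735). NPY4R2, a neuropeptide Y receptor gene overlapped on the other strand, fell by 0.81 with palmitate (limma adjusted p = 0.0174), and reads of these 3 genes may be shared.

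FENDRR (chr16:86474529-86509099, minus strand), a lincRNA of mesoderm development that starts 1428 bases from FOXF1 on the opposite strand, was at 6.22, 7.87 and 8.13 FPKM in control, 3.71, 3.27 and 4.04 in PA, 3.31, 3.81 and 3.42 in PA+OA and 3.49, 3.58 and 3.53 in PA+BMS. All 9 treated libraries lay below the controls within a narrow band. It fell with palmitate by 0.84 (SE 0.11, limma adjusted p = 0.00113), which held under every alternative. FOXF1, a transcription factor of lung and gut mesenchyme, was not called with palmitate (-0.42, limma adjusted p = 0.0603) and fell with oleate by 0.90 (limma adjusted p = 0.00435), where the FENDRR difference was -0.05 (limma adjusted p = 0.881).

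LINC00294 was at 5.10, 5.03 and 5.46 FPKM in control, 2.23, 2.06 and 3.06 in PA, 1.10, 2.37 and 2.41 in PA+OA and 4.33, 3.84 and 4.92 in PA+BMS. It fell with palmitate by 0.86 (SE 0.18, limma adjusted p = 0.00849), which held under every alternative. It rose with BMS-309403 by 0.64 (SE 0.18, limma adjusted p = 0.0134), which was lost without PA replicate 2 or PA+BMS replicate 3 (highest adjusted p = 0.0541). It overlaps TCP11L1 and CSTF3. The remaining large falls with palmitate were less steady. AC016717.2 fell by 0.88 (limma adjusted p = 0.0138; lost without control replicate 2 or PA replicate 2, to 0.0623) and AP001574.1 by 0.80 (0.0259; lost without control replicate 1 or 2 or PA replicate 1 or 2, to 0.113, and without the GC and length trend, at 0.0873). AP001628.1 fell by 0.88 (limma adjusted p = 0.0471), lost on leaving out 7 of the 12 libraries, namely control replicates 2 and 3, PA replicates 1 and 2, PA+OA replicates 2 and 3 and PA+BMS replicate 1 (highest adjusted p = 0.172).

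Among the rises with palmitate, AL606468.1 (chr1:212168207-212190259, plus strand) was not detected in control. It had 0 reads in each control library and 6, 9 and 9 reads in the PA libraries, or 0.704, 1.06 and 1.03 FPKM. It was at 1.29, 1.0 and 1.34 FPKM in PA+OA and 0.286, 0.518 and 0.395 in PA+BMS. Against the level that 3 reads per control library would give (0.329 FPKM), PA was at least 2.84-fold higher, with counting error alone covered. The rise held under every alternative run for it (limma adjusted p = 0.00118), the filter on the mean not being one. However, it reached 1 FPKM only in PA and PA+OA libraries. The level that chose it therefore favoured a rise over control, and the rise is no independent result. With BMS-309403 it fell by 0.46 (limma adjusted p = 0.0127), a call lost without PA replicate 2 (adjusted p = 0.0524), with voom on recovered reads, and without the GC and length trend (-0.01, adjusted p = 0.977).

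SCAMP1-AS1, which starts 76 bases from the secretory membrane protein gene SCAMP1 on the opposite strand, was at 4.50, 3.98 and 3.35 FPKM in control, 7.51, 6.66 and 6.93 in PA, 11.3, 8.98 and 7.48 in PA+OA and 4.96, 4.91 and 3.60 in PA+BMS. It rose with palmitate by 0.71 (SE 0.15, limma adjusted p = 0.00956) under every alternative, and fell with BMS-309403 by 0.56 (limma adjusted p = 0.0124), lost without PA+BMS replicate 3 (adjusted p = 0.0504). That fall was also lost with library totals set equal, with voom, and without the GC and length trend (-0.28, adjusted p = 0.0605), the highest adjusted p being 0.0930. AC144652.1, divergent from the sterol regulator gene INSIG1, was at 0.506, 0.627 and 0.850 FPKM in control and 1.22, 2.19 and 2.27 in PA. It rose by 0.78 (SE 0.16, limma adjusted p = 0.00705) with each library left out, but not without the GC and length trend (0.44, adjusted p = 0.134).

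NUP50-DT, divergent from the nuclear pore gene NUP50, was at 5.29, 3.82 and 3.21 FPKM in control, 7.14, 7.84 and 7.35 in PA, 15.2, 13.0 and 11.2 in PA+OA and 6.33, 4.77 and 3.43 in PA+BMS. The 4 groups form 3 levels: control and PA+BMS overlapped, PA lay above both and PA+OA above PA. It rose with palmitate by 0.74 (SE 0.19, limma adjusted p = 0.0173; lost without control replicate 2 or 3 or PA replicate 2, to 0.0730). It rose again with oleate by 0.73 (limma adjusted p = 0.0336), lost on leaving out control replicate 2, any PA library, PA+OA replicate 1 or 2 or PA+BMS replicate 2 (highest 0.117). It fell with BMS-309403 by 0.56 (limma adjusted p = 0.0267), lost on leaving out any PA library or PA+BMS replicate 2 or 3 (highest 0.113) and without the GC and length trend (-0.45, adjusted p = 0.0573).

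AP002360.1, divergent from EMSY, was at 8.52, 8.77 and 8.52 FPKM in control, 17.1, 17.4 and 13.4 in PA, 18.7, 14.7 and 13.2 in PA+OA and 8.63, 8.93 and 3.81 in PA+BMS. It rose with palmitate by 0.82 (SE 0.24, limma adjusted p = 0.0274). This call was lost without control replicate 2 or 3 or PA replicate 1 or 2 (highest adjusted p = 0.0958). AP002360.1 fell with BMS-309403 by 1.13 (SE 0.24, limma adjusted p = 0.00549), which held under every alternative. AC026401.3 rose with palmitate by 0.62 (limma adjusted p = 0.0216), lost without control replicate 1 or 3 or PA replicate 1 or 2 (highest adjusted p = 0.0875). The palmitate calls of both were also lost with no filter on low values, with library totals set equal and with voom (highest adjusted p = 0.0946 and 0.0866). AC130371.2 rose by 0.73 (limma adjusted p = 0.0130). This call was lost without control replicate 3 or PA replicate 2 (to 0.0641) and without the GC and length trend (0.233). AC130371.2 had 2, 4 and 2 reads in control and 8, 14 and 11 in PA, and it reached 1 FPKM only in PA and PA+OA libraries. The level that chose it therefore favoured a rise over control, and the rise is no independent result.

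With oleate, the largest change was in a lincRNA beside histone genes. AL021807.1 (chr6:27122657-27123221, minus strand) was at 1.0, 1.1 and 1.81 FPKM in control, 0.318, 1.28 and 1.24 in PA, 3.97, 8.15 and 10.6 in PA+OA and 2.23, 1.48 and 1.52 in PA+BMS. Every PA+OA library lay above every other, and it rose by 2.10 (SE 0.29, limma adjusted p = 0.00136). It begins 2676 bases downstream of HIST1H2BJ, a histone H2B gene on the same strand, which rose by 2.35 (limma adjusted p = 5.19e-07). AC034213.1 was at 0.956, 0.421 and 0.745 FPKM in control, 0.891, 2.24 and 1.09 in PA, 5.73, 5.86 and 5.17 in PA+OA and 1.51, 1.42 and 0.563 in PA+BMS, and rose by 1.49 (SE 0.22, limma adjusted p = 0.00200). Both rises held under every alternative.

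AC025181.2, which starts 121 bases from the Golgi protein gene GOLPH3 on the opposite strand, was at 2.43, 2.61 and 2.10 FPKM in control, 1.64, 2.86 and 2.19 in PA, 5.02, 6.03 and 5.59 in PA+OA and 2.97, 3.13 and 1.82 in PA+BMS. It rose by 1.03 (SE 0.17, limma adjusted p = 0.00291) under every alternative. BX537318.1 rose from 0.991, 1.5 and 1.41 FPKM in PA to 3.99, 3.86 and 4.02 in PA+OA (log2 change 1.12, limma adjusted p = 0.00845), with each library left out but not with a pseudocount of 0.1 (adjusted p = 0.0625). FLJ20021, on the strand opposite PPP3CA, rose from 1.89, 3.51 and 3.34 to 9.85, 8.64 and 6.94 (1.29, limma adjusted p = 0.0194), lost without PA replicate 1 or PA+OA replicate 2 (highest adjusted p = 0.0963). AL592464.1 and LINC02361 also rose, by 1.22 and 1.09, but passed the level through PA+OA alone.

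The falls with oleate were fewer. AC007785.1 was at 3.87, 4.43 and 3.25 FPKM in control, 3.24, 3.45 and 1.76 in PA, 0, 0.685 and 0.636 in PA+OA and 4.24, 2.39 and 2.13 in PA+BMS. The reads behind this were 18, 19 and 10 in PA and 0, 4 and 4 in PA+OA, and it fell by 1.41 (SE 0.25, limma adjusted p = 0.00497) under every alternative. AC125807.2, which lies 764 bases downstream of the transcription factor gene TEAD4, was at 5.28, 5.65 and 6.68 FPKM in control, 5.31, 4.91 and 4.63 in PA, 3.19, 2.83 and 3.02 in PA+OA and 3.25, 3.13 and 3.66 in PA+BMS. It fell with oleate by 0.57 (SE 0.10, limma adjusted p = 0.00579) under every alternative. With BMS-309403 it fell by 0.45 (limma adjusted p = 0.00736), but the difference was -0.05 without the GC and length trend.

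The other large falls with oleate did not hold with every library left out. AL138781.1 fell by 0.78 (lost without PA replicate 1 or 2 or PA+OA replicate 3, to an adjusted p of 0.0679) and AC004449.1 by 0.76 (lost without PA replicate 1, at 0.0584). AC011450.1 fell by 0.77 (lost without PA replicate 2 or 3, to 0.0900). AC092171.2 fell from 19.8, 16.0 and 14.1 FPKM in PA to 12.1, 9.48 and 8.76 in PA+OA, and AL161431.1 from 17.6, 17.8 and 16.4 to 13.2, 11.1 and 10.9 (log2 changes -0.67 and -0.52). Both were lost without PA replicate 1 or 2 or PA+OA replicate 2 or 3, and AL161431.1 also without PA replicate 3 (highest adjusted p = 0.127 and 0.114).

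With BMS-309403, the most abundant lincRNA fell. PICSAR (chr21:44999208-45004727, minus strand) was at 93.9, 73.2 and 68.0 FPKM in control, 82.4, 104 and 86.9 in PA, 145, 92.2 and 87.7 in PA+OA and 40.5, 37.2 and 25.0 in PA+BMS. All PA+BMS libraries lay below all others. It fell by 1.41 (SE 0.22, limma adjusted p = 0.00251), by 0.79 without the GC and length trend (adjusted p = 0.000905), and by 1.20 without both libraries that stood apart. LINC01679 (chr21:43358147-43362349, minus strand) was at 2.86, 2.49 and 2.66 FPKM in control, 2.93, 2.91 and 2.57 in PA, 4.08, 2.36 and 2.39 in PA+OA and 0.607, 0.425 and 0.450 in PA+BMS. It fell by 1.35 (SE 0.15, limma adjusted p = 0.000578).

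AC061992.1 (chr17:78360453-78373911, plus strand), divergent from SOCS3, the feedback inhibitor of cytokine signalling, was at 6.40, 4.38 and 4.19 FPKM in control, 5.64, 7.51 and 6.46 in PA, 8.83, 7.51 and 6.17 in PA+OA and 2.21, 1.85 and 1.36 in PA+BMS. It fell by 1.43 (SE 0.17, limma adjusted p = 0.000841). LINC01503 (chr9:129332300-129359538, plus strand), described in squamous carcinoma, was at 3.93, 2.84 and 2.45 FPKM in control, 4.09, 3.82 and 3.49 in PA, 4.55, 3.46 and 2.95 in PA+OA and 0.914, 1.33 and 0.822 in PA+BMS. It fell by 1.25 (SE 0.16, limma adjusted p = 0.00112). The falls of PICSAR, LINC01679, AC061992.1 and LINC01503 held under every alternative, and in each the PA+BMS libraries overlapped no other group.

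LINC01023 fell from 3.71, 4.29 and 2.82 FPKM in PA to 1.34, 1.31 and 0.231 in PA+BMS (log2 change -1.28, limma adjusted p = 0.00753), also under every alternative. AC005786.2, on the strand opposite the lysosomal protein gene MFSD12, fell from 8.92, 4.41 and 4.76 to 1.97, 0.835 and 1.91 (-1.43, limma adjusted p = 0.00528), and MFSD12 fell by 1.27 (limma adjusted p = 0.00220). Without the GC and length trend the change of AC005786.2 was -0.88 (adjusted p = 0.0586). The remaining large falls rested on few reads: AC025166.1 had 2, 8 and 9 reads in PA and 1, 0 and 0 in PA+BMS, and AC008608.2 had 10, 9 and 18 and then 3, 1 and 0.

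PICSAR is the last of 5 lincRNAs between positions 44932814 and 45004727 of chromosome 21. The other members of this cluster were chosen after their values were seen. LINC00163 fell with BMS-309403 by 0.56 (limma adjusted p = 0.0101), from 2.33, 2.52 and 3.32 FPKM to 1.87, 1.29 and 1.43, but was at 0.07 without the GC and length trend. LINC00165 fell by 0.65 (limma adjusted p = 0.0256), lost without PA replicate 2 or 3 or PA+BMS replicate 3 (highest adjusted p = 0.110) and at -0.17 without that trend (adjusted p = 0.569). LINC01547 fell by 0.39 (limma adjusted p = 0.0461), a call lost on leaving out any of 9 libraries, the exceptions being control replicates 1 and 2 and PA+OA replicate 1 (highest adjusted p = 0.165), and with the trend removed the difference was 0.22. AP001505.1 was not called (-0.77, limma adjusted p = 0.0582). FAM207A, the nearest coding gene, fell by 1.01 (limma adjusted p = 0.00791).

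**Figure D4:**
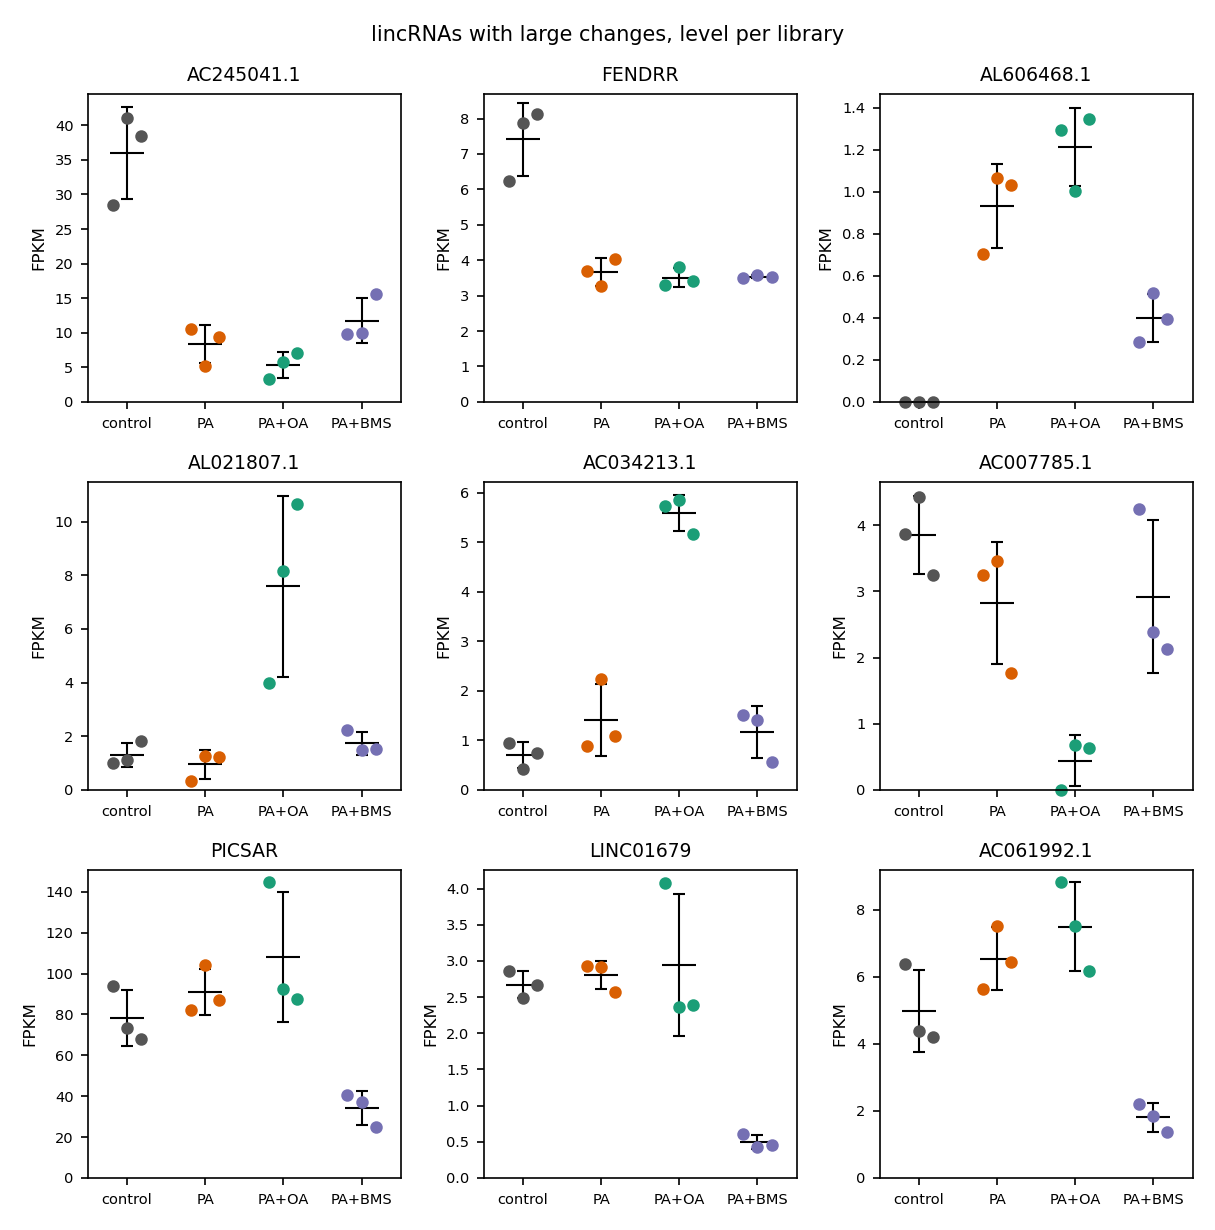
FPKM per library for 9 lincRNAs with large changes, in the 4 groups, each panel with its own linear axis from 0. Points are libraries, the long bar is the group mean and the whiskers are 1 SD (n = 3). The top panels show palmitate changes, the middle panels oleate changes and the bottom panels BMS-309403 changes; the PA+BMS points of PICSAR, at 25.0 to 40.5 FPKM, lie below all its other points.

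The rises with BMS-309403 were smaller than the falls, none reaching 2-fold. EBLN3P, a bornavirus-derived pseudogene transcript, was at 3.15, 4.24 and 3.76 FPKM in control, 2.17, 1.93 and 2.33 in PA, 1.54, 2.96 and 3.77 in PA+OA and 4.06, 3.83 and 5.34 in PA+BMS. It rose by 0.78 (SE 0.20, limma adjusted p = 0.0101) with each library left out, and by 0.29 without the GC and length trend (adjusted p = 0.117). With palmitate it fell by 0.58 (limma adjusted p = 0.0482), a call lost on leaving out 8 libraries (control replicates 2 and 3, all PA libraries, PA+OA replicate 2 and PA+BMS replicates 1 and 2, to 0.164) and without that trend (-0.19, adjusted p = 0.310).

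HCG11, a lincRNA of the extended histocompatibility region, rose with BMS-309403 from 4.12, 4.14 and 4.23 FPKM to 6.24, 5.64 and 8.65 (log2 change 0.58, limma adjusted p = 0.0204), lost without PA replicate 1 or 2 or PA+BMS replicate 3 (highest adjusted p = 0.0853) and without the GC and length trend (0.15, adjusted p = 0.370). ARLNC1, first described as an androgen receptor-regulated RNA, rose from 0.637, 0.428 and 0.646 to 1.32, 1.11 and 1.61 (0.58, limma adjusted p = 0.00693) with each library left out, but not without the trend (0.32, adjusted p = 0.0733). AC079921.2 rose from 0.526, 0.530 and 0.515 to 1.17, 0.968 and 1.66 (0.56, limma adjusted p = 0.0166), lost without PA+BMS replicate 3 (adjusted p = 0.0668). AC015922.2 rose by 0.75, lost on leaving out any PA library or PA+BMS replicate 2 or 3 (highest adjusted p = 0.147). LINC01176 rose by 0.56, lost without control replicate 1 or 3, PA replicate 1 or 2, PA+OA replicate 2 or PA+BMS replicate 2 or 3 (highest adjusted p = 0.149). It had 2, 6 and 10 reads in PA and 15, 26 and 16 in PA+BMS, and it reached 1 FPKM only in PA+OA and PA+BMS libraries. The level that chose LINC01176 therefore favoured this rise over PA, and the rise is no independent result.

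Coding neighbours were examined for the 132 lincRNAs that lay within 10 kb of a tested coding gene without overlapping it. Of these, 16 lincRNAs and 37 neighbours were called with palmitate, 12 and 18 with oleate, and 29 and 77 with BMS-309403. The share called over all tested protein-coding genes was 30.6%, 7.97% and 60.2%. Both genes of a pair were called in 3 pairs with palmitate (1 in the same direction) and in 2 with oleate (both the same). For BMS-309403 it was 13 pairs (8 the same and 5 opposite). The 5 pairs with BMS-309403 in which the lincRNA lay downstream on the coding gene's strand all moved the same way, as did 2 of 6 divergent pairs. Without the GC and length trend, the pairs that kept both calls there were AC061992.1 with SOCS3 and LINC01693 with NEK2. Of the downstream pairs, AL645608.7 (0.25) and HES4 (-0.61) were then opposite, as were AC130371.2 (0.12) and METRNL (-0.51). The genes named in these pairs beyond the leading lincRNAs were chosen after their values were seen.

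In the same-direction divergent pairs, AC061992.1 fell with SOCS3 (-0.92, limma adjusted p = 0.00436) with BMS-309403, and OSER1-DT rose with OSER1, an oxidative stress response gene, with oleate. OSER1-DT went from 1.20, 1.43 and 0.991 FPKM to 3.44, 2.78 and 2.44 (log2 change 0.81, limma adjusted p = 0.00333), and OSER1 changed by 0.77, and the OSER1-DT call held under every alternative. In the opposite pairs, SCAMP1-AS1 rose with palmitate while SCAMP1 fell by 0.59 (limma adjusted p = 0.0373), and NUP50-DT rose while NUP50 fell by 0.81 (limma adjusted p = 0.0178). Both pairs turned round with BMS-309403, where SCAMP1 rose by 0.58 and NUP50 by 0.67.

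In each of these opposite pairs the lincRNA had the higher GC content, 51.2% against 34.1% for SCAMP1 and 48.7% against 43.1% for NUP50. AP002360.1 (51.5%) and EMSY (41.7%) were also opposite with BMS-309403. Without the GC and length trend, both genes were called in 1, 2 and 2 pairs in the 3 comparisons. The opposite pair of LINC01693 and the mitotic kinase gene NEK2 kept its calls there, at -0.58 and 0.59 (adjusted p = 0.0371 and 0.00922), against -0.87 and 0.88 before.

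**Figure D5:**
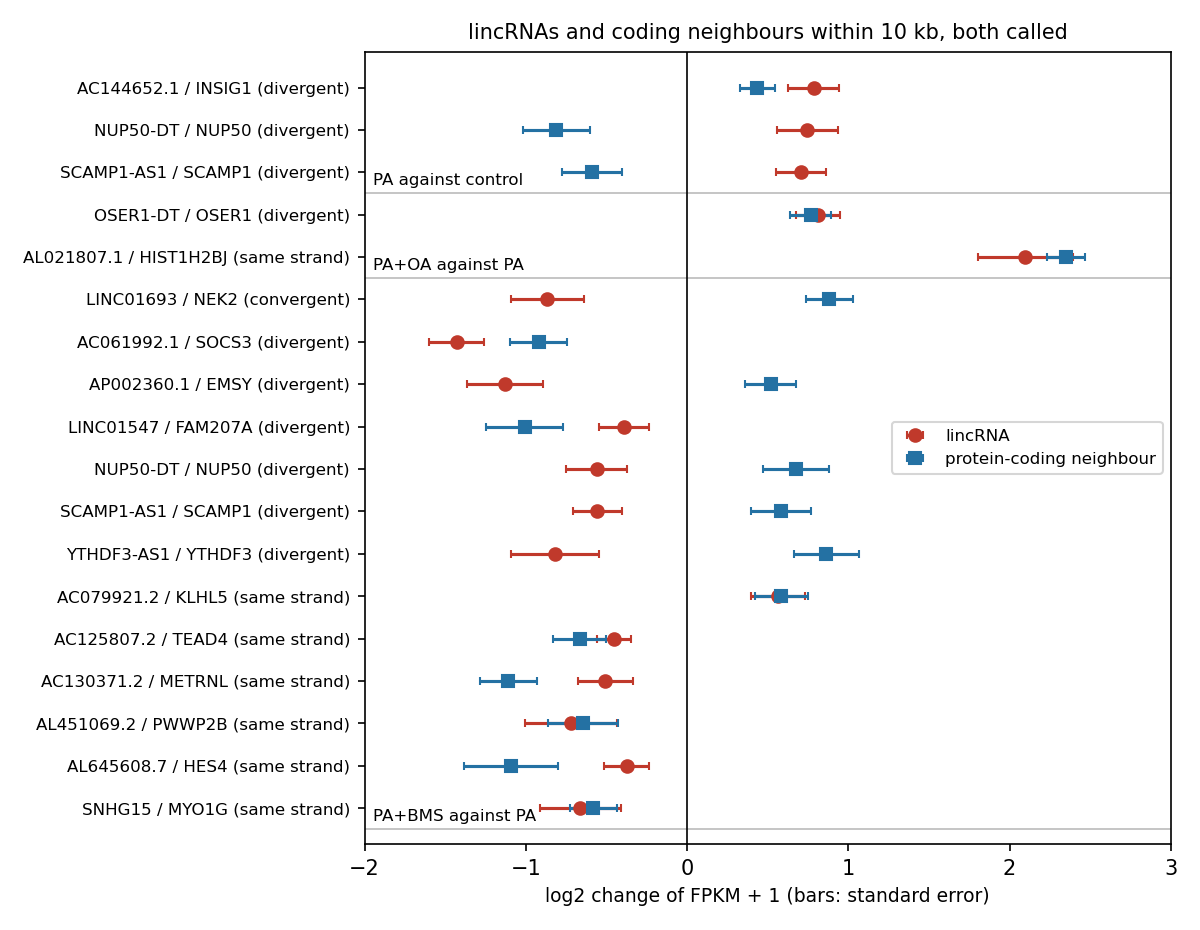
Log2 change of FPKM + 1 (horizontal, bars are 1 standard error) for each lincRNA (red circles) and its coding neighbour within 10 kb (blue squares), where both were called, grouped by comparison. Of the 13 pairs with BMS-309403, 8 lie on 1 side of 0 together and 5 lie on opposite sides.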

How the data were processed

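Per the labels' protocols, RNA of 12 HepaRG libraries, 3 per group, was poly(A)-selected and sequenced. HISAT2 2.0.5, featureCounts 1.5.0-p3 and CASAVA are listed in the submitters' processing notes. For the genome build, annotation and strand setting, the answer is not given in the sources used here. All 58735 gene identifiers, symbols and positions equalled those of GENCODE 29 (GRCh38), whose coordinates are printed. The deposited FPKM values were made by the authors. Multiplied by gene length, 100% were whole multiples of a library's step (tolerance 0.001), which gave the reads. The library size behind the FPKM was 0.827 to 1.14 times the recovered total, for a reason not given in the sources used here.

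Genes that reached 1 FPKM in 3 or more libraries were tested on log2(FPKM + 1) with limma 3.58.1 in R 4.3.3 (12 libraries, 4 group coefficients, trended eBayes, 8 residual degrees of freedom, two-sided, Benjamini-Hochberg adjustment over all genes, threshold 0.05). The pseudocount understates changes of low genes. The members, lists, alternatives and tests were chosen with earlier results of these data known. Named lincRNAs are the 8 largest called rises and falls without overlap in each comparison, the SNHG and microRNA host genes, a list of well-known lincRNAs and the 5 highest. Named list genes are 2 to 4 with small p per list. The losses of calls given beside single genes do not list every alternative under which a call was lost.

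Alternatives were a pseudocount of 0.1, no filter, a filter on the mean, median-of-ratios scaling, totals set equal, quantile normalization, removal of a GC and length trend, only the 2 groups compared, a replicate block, voom on recovered reads, leaving out both libraries that stood apart and leaving out each library. Replicates differed beyond sampling noise (chi-square per gene 3.46 to 67.6). The procedure was tested on simulated data. Of the 317 lincRNAs, 130 overlap another annotated gene. Python 3.11.15 with matplotlib 3.10.9 drew the figures. The sequence of 1 further snoRNA is not reported here.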

Additional observations from a re-analysis of the deposited data

How the results depend on the processing

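Leaving out each library in turn, the number of lincRNAs called ranged from 10 to 54 with palmitate, 16 to 41 with oleate and 35 to 92 with BMS-309403, against 37, 32 and 78. With no filter on low values, which tests more genes, the counts were 14, 18 and 34. With only the 2 groups compared they were 72 with palmitate and 20 with oleate, with limma voom on recovered reads 21 with oleate and 50 with BMS-309403, and without both libraries that stood apart 80 with palmitate and 58 with oleate. The causes were not tested. All other counts lay within 1.5 times of those reported, but a similar count was not always of the same genes. With library totals set equal, 27 of 37, 27 of 32 and 38 of 78 calls stayed called in the same direction. Removal of the GC and length trend left 21, 28 and 33 of them, and 10 of the BMS-309403 calls changed sign. With the GC and length trend removed, 5 named differences with BMS-309403 turned direction and were not called: LINC01547 (0.22), LINC00163 (0.071), AL645608.7 (0.25), AL592464.1 (0.041) and AC130371.2 (0.12). Of 80 calls for named lincRNAs (24, 19 and 37), 8, 9 and 15 held with each of 12 libraries left out, and 9, 8 and 9 held under all other alternatives run for them, 11 in most cases and 10 where a mean under 1 FPKM kept the gene out of the filter on the mean.

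Replicate numbers were shared between groups, but same-numbered libraries did not deviate together (correlations -0.28 to 0.36), so they share only a number. With a replicate block the counts were 52, 36 and 95, and no named call was lost. Over all tested genes the block gave 4652, 1139 and 7083 calls, against 3272, 938 and 6463 without it. Depth limits the low lincRNAs, where a few reads decide a value.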

Other observations

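OLMALINC, chosen after its values were seen, lies 8679 bases downstream of SCD, the desaturase that makes oleate, on the same strand. It was at 1.52, 1.02 and 0.928 FPKM in control and 2.06, 2.35 and 2.12 in PA, and rose with palmitate by 0.57 (SE 0.14, limma adjusted p = 0.0170), a call lost without control replicate 2 or 3 or PA replicate 2 (highest adjusted p = 0.0738). With oleate it was at 2.66, 1.88 and 2.11 FPKM and was not called (0.01, limma adjusted p = 0.979), while SCD fell by 0.75 (limma adjusted p = 0.0149). AC144652.1, beside INSIG1, was at 1.42, 1.12 and 1.56 FPKM with oleate, overlapping its PA values (-0.27, limma adjusted p = 0.373), while INSIG1 fell by 1.70 (limma adjusted p = 4.24e-06). With BMS-309403, INSIG1 rose by 0.61 (limma adjusted p = 0.00347) and AC144652.1 was at 2.12, 2.52 and 2.11 FPKM (0.19, limma adjusted p = 0.320). In these pairs, whether the lincRNA and its coding neighbour differ in their change with oleate was not tested.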
